A study of Mus musculus with 12 samples.

Results

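The lysyl oxidase genes Lox, Loxl1, Loxl2, Loxl3 and Loxl4 were followed in aortic tissue of mice infused with β-aminopropionitrile (BAPN), a chemical inhibitor of the enzymes that these genes encode, together with the pressor hormone angiotensin II (AngII). Their probes were chosen by name, as every probe on the array whose gene name was one of the 5 symbols, and numbered 10 of the 55681 probes other than controls. The members thus were 5 of the 22758 genes tested. RNA of aortic tissue from male mice of mixed background (129S5/SvEvBrd, C57BL6 and SJL) was hybridised to 12 one-colour microarrays, 3 in each of 4 groups. The labels gave no age, and the methods of the paper, which name 11 to 14 weeks for its animal experiments, do not tie that age to these arrays. Every mouse, the controls included, was homozygous for a floxed Socs3 allele (Socs3fl/fl). Mice labelled smSocs3-KO also carried SM22-Cre, a recombinase transgene driven by a smooth muscle promoter, and their littermates without the transgene are called WT. In each genotype, 3 arrays came from mice without infusion (before challenge) and 3 from mice on day 3 of an infusion of 150 mg/kg/day BAPN and 1000 ng/kg/min AngII through osmotic minipumps. Because BAPN and AngII were always given together, a change at day 3 cannot be assigned to either agent. The arrays measured messenger RNA and not the enzyme activity that BAPN blocks.

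Lysyl oxidases are secreted, copper-dependent enzymes that oxidise lysine residues of collagen and elastin, after which the oxidised residues join into the covalent crosslinks that give the aortic wall its strength and recoil. Lox and Loxl1 are made as proenzymes and are cut by the procollagen C-proteinase encoded by Bmp1, whereas Loxl2, Loxl3 and Loxl4 share a row of scavenger receptor domains in front of the catalytic domain. In the aorta, loss of Lox is known to lead to aneurysm and rupture, and Loxl1 is known for its part in the upkeep of elastic fibres.

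Values are given as log2 signal relative to the 75th percentile of the same array, so that 0 is the signal of a spot at that percentile and a step of 1 is a doubling. The level of 1 probe is not compared with that of another. The arrays were split over 2 slides. Slide 1 held the 6 WT arrays together with the smSocs3-KO replicate 1 taken before challenge, and slide 2 held the remaining 5, so that a genotype difference was largely also a slide difference. Socs3 itself was not lower under the smSocs3-KO label (1.40-fold the WT signal before challenge and 2.84-fold at day 3, limma adjusted p = 0.9999 and 0.201) in the fit without slides. With the slide as a block the log2 difference was -0.20 before challenge and 0.47 at day 3. Both values rest on smSocs3-KO replicate 1 before challenge, the only array of its label on slide 1, which alone sets the slide term. The signal of Socs3 thus did not settle the label, and these arrays are called the arrays labelled smSocs3-KO. All 7 smooth muscle markers examined, among them Acta2 and Myh11, were well above background on all 12 arrays. Among the day 3 arrays of WT, replicate 4 stood apart with a lower signal of proliferation and macrophage markers. Its mean log2 level of smooth muscle and neutrophil markers was higher than on the other WT day 3 arrays. Member results whose call changes without replicate 4 are given both ways. The labels do not say whether the arrays of a group came from separate mice, and the p-values measure only the spread between these arrays.

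To show how many bases probes of different members share, sequences of both Loxl1 probes and of the other Loxl2 probes, those that did not stand for the gene, are given. The Loxl2 probe that stood for the gene, A_52_P480351, is not printed. Sequences run 5′ to 3′ with the array design's mm9 coordinates. Capitals mark the longest run of bases that the probe shares with a probe of another lysyl oxidase.
Loxl1 probe A_51_P304239, chr9:58138570-58138629, minus strand: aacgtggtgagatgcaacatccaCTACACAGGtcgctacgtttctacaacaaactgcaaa
Loxl1 probe A_55_P2096226, chr9:58145451-58145510, minus strand: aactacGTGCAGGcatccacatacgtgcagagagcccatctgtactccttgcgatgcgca
Loxl2 probe A_55_P2131348, chr14:70090017-70090076, plus strand: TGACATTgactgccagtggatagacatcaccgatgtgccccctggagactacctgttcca
Loxl2 probe A_51_P275949, chr14:70092141-70092200, plus strand: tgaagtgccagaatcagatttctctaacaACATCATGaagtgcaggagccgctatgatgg
The longest shared run in the first of these sequences was 9 bases and was shared with a probe of Lox. Over all 39 pairs of probes from different members, each probe 60 bases long, the longest shared run was 4 to 9 bases. The most identical bases at any ungapped alignment were 31, between the same probe of Loxl1 and a probe of Lox. Probes were compared only with probes and not with the transcripts of other members, so cross-hybridisation between members was not tested. The positions in exons, introns or untranslated regions were not used here, since no annotation of mm9 was at hand.

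The region upstream of the gene start was at hand for 1 of the 5 members, Loxl4, in the RefSeq promoter table of GRCm38.p6. It is shown because Loxl4 was among the members whose signal rose. Capitals mark matches, on either strand, to 6 short motifs: the GC box GGGCGG, the hypoxia element core ACGTG, the Smad element CAGAC, the STAT element TTCNNNGAA, the AP-1 element TGANTCA and the TATA box TATAAA.
Loxl4, 250 bases before the start, chr19:42612807-42613056, minus strand: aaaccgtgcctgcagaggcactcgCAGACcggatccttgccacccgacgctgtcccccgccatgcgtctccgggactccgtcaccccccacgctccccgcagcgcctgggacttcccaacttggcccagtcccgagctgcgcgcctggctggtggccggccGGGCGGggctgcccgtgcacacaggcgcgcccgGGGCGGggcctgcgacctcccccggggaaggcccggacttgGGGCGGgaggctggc
The GC box occurred 3 times, at positions -89, -56 and -15 from the start, and was held at least once by 32.7% of 32851 promoter windows of the same length. The share of windows with 3 matches was not counted. The Smad element occurred once, at -226, and was held by 42.2% of the windows. The letters of the other motifs were not in this window, and they were held by 16.6% (hypoxia element core), 7.02% (STAT), 6.75% (AP-1) and 12.4% (TATA box) of all windows. The G and C share of the Loxl4 window was 76%, compared with a median of 52.4%.

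The question of this comparison was how the transcripts of the enzymes that BAPN inhibits stood at day 3 of BAPN + AngII. Over both genotype labels, 3 of the 5 members rose at day 3. Lox rose 2.71-fold, Loxl2 2.38-fold and Loxl4 3.18-fold, while the changes of Loxl1 (1.22-fold) and Loxl3 (1.17-fold) did not pass the adjusted threshold. No member fell. In the same mean of both responses, 12.6% of all genes tested (2871) were called higher and 10.3% (2349) lower at a limma adjusted p under 0.05, a split that moved to 4030 higher and 907 lower when arrays were scaled to their median, under which the same 3 members were called. In the aorta as a whole, a change in the number of cells that express a gene and a change in RNA per cell cannot be told apart.

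**Figure D1:**
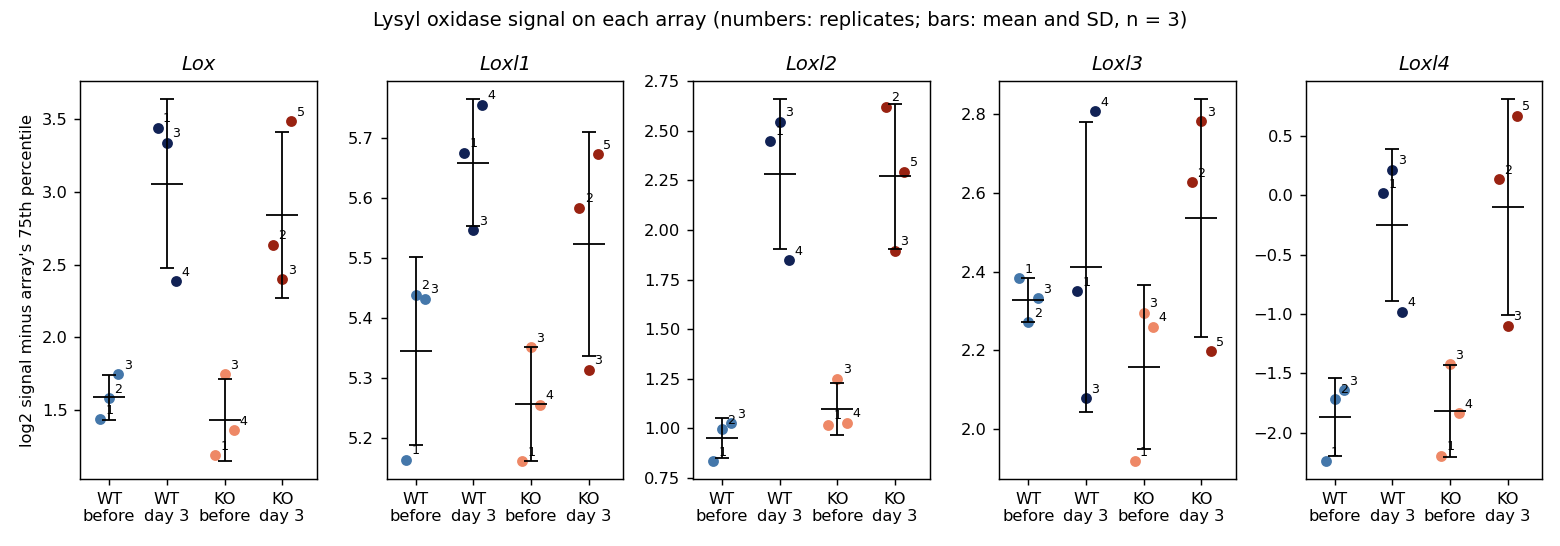
Log2 signal of each lysyl oxidase relative to the array's 75th percentile (y axis, a separate scale for each gene) on the 12 arrays of the 4 groups, where KO stands for the smSocs3-KO label, numbers are replicates and bars are the mean and SD of 3 arrays. For Lox, Loxl2 and Loxl4 all 6 day 3 arrays lie above all 6 arrays before challenge, whereas those of Loxl1 and Loxl3 overlap.

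Lox encodes the founding enzyme of the family. It was read by 2 probes on chromosome 18 of mm9, and the brighter one (A_66_P138929, from 52676912 to 52676971, minus strand) stood for the gene. Before challenge, the log2 signal of Lox in WT was 1.44 (replicate 1), 1.58 (replicate 2) and 1.75 (replicate 3), and at day 3 it was 3.44 (replicate 1), 3.34 (replicate 3) and 2.39 (replicate 4). Under the smSocs3-KO label it was 1.19 (replicate 1), 1.75 (replicate 3) and 1.36 (replicate 4) before challenge, and 2.64 (replicate 2), 2.40 (replicate 3) and 3.49 (replicate 5) at day 3. The day 3 arrays did not overlap with those before challenge under either label, with WT replicate 4 and smSocs3-KO replicate 3 lowest among them. The mean log2 response of both labels was 1.44 (standard error 0.23, limma adjusted p = 0.00611). In WT alone it was 1.47 (standard error 0.33, limma adjusted p = 0.0388), from 1.59 ± 0.15 to 3.06 ± 0.58 (SD, n = 3). The WT call was lost, at limma adjusted p-values of 0.0512 to 0.175, when any of WT replicates 1, 2 and 3 before challenge, WT replicates 1 and 3 at day 3, smSocs3-KO replicate 4 before challenge or smSocs3-KO replicate 2 at day 3 was left out. On the arrays labelled smSocs3-KO the log2 fold change was 1.41 (standard error 0.33) and its limma adjusted p was 0.0524, which became 0.0151 without WT replicate 4 at day 3.

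Loxl1, the elastic fibre enzyme, had a log2 signal of 5.16, 5.44 and 5.43 in WT before challenge and 5.68, 5.55 and 5.76 in WT at day 3, in the same order of replicates as for Lox. Under the smSocs3-KO label it was 5.16, 5.35 and 5.26 before challenge and 5.58, 5.31 and 5.67 at day 3. The 3 WT arrays at day 3 were above the 3 before challenge, whereas under the smSocs3-KO label replicate 3 at day 3 lay between arrays before challenge. The log2 fold change was 0.31 in WT (95% confidence interval -0.02 to 0.65), 0.27 under the smSocs3-KO label (-0.07 to 0.61) and 0.29 in the mean of both (0.05 to 0.53), and none passed the adjusted threshold (limma adjusted p = 0.219, 0.300 and 0.0739). A change of Loxl1 in WT as large as those of Lox, Loxl2 or Loxl4 thus lay outside its interval.

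Loxl2, which acts among others on collagen of basement membranes, was read by 3 probes, of which the brightest (A_52_P480351, chr14:70095254-70095313, plus strand) stood for the gene. Its log2 signal was 0.83, 0.99 and 1.02 in WT before challenge and 2.45, 2.55 and 1.85 in WT at day 3. On the arrays labelled smSocs3-KO it was 1.02, 1.25 and 1.03 before challenge and 2.62, 1.89 and 2.29 at day 3. Every day 3 array was above every array before challenge, and again WT replicate 4 and smSocs3-KO replicate 3 were the lowest at day 3. The mean response was 1.25 (standard error 0.16, limma adjusted p = 0.00405). In WT it was 1.33 (standard error 0.23, limma adjusted p = 0.0305), and under the smSocs3-KO label it was 1.17 (standard error 0.23, limma adjusted p = 0.0355). The WT call was lost without any of the 3 WT arrays before challenge, WT replicates 1 and 3 at day 3 or smSocs3-KO replicate 4 before challenge (limma adjusted p = 0.0532 to 0.155). The other call was lost without any of the 6 arrays before challenge or without smSocs3-KO replicates 2 and 5 at day 3 (limma adjusted p = 0.0607 to 0.111).

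Loxl3 was read by 1 probe (A_55_P2277019, chr6:83001888-83001947, plus strand). Its log2 signal was 2.38, 2.27 and 2.33 in WT before challenge and 2.35, 2.08 and 2.81 in WT at day 3. Under the smSocs3-KO label the values were 1.92, 2.30 and 2.26 before challenge and 2.63, 2.78 and 2.20 at day 3. The groups overlapped under both labels. WT replicate 4 and smSocs3-KO replicate 3, the lowest day 3 arrays for Lox and Loxl2, were the highest for Loxl3. The log2 fold change was 0.08 in WT (95% confidence interval -0.40 to 0.56), 0.38 under the smSocs3-KO label (-0.10 to 0.86) and 0.23 in the mean of both (-0.11 to 0.57), where limma's adjusted p was 0.283. The value in WT became -0.11 when replicate 4 at day 3 was left out.

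Loxl4 was read by 2 probes, both well above background on all 12 arrays. The log2 signal of the probe that stood for the gene (A_55_P2044143, chr19:42667320-42667379, minus strand) was -2.24, -1.71 and -1.64 in WT before challenge and 0.02, 0.21 and -0.98 in WT at day 3. For the smSocs3-KO label the signal was -2.20, -1.43 and -1.84 before challenge and 0.13, -1.10 and 0.67 at day 3. All 6 day 3 arrays were above all 6 before challenge, and the spread within the day 3 groups was the widest of the 5 members on this log2 scale (SD 0.64 and 0.91, n = 3). The mean response was 1.67 (standard error 0.32, limma adjusted p = 0.00855). Neither genotype alone passed, with 1.62 in WT (limma adjusted p = 0.0612) and 1.72 under the smSocs3-KO label (limma adjusted p = 0.0680). Both passed without WT replicate 4 at day 3 (limma adjusted p = 0.0178 and 0.0311) or without smSocs3-KO replicate 3 at day 3 (0.0474 and 0.0355).

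**Figure D2:**
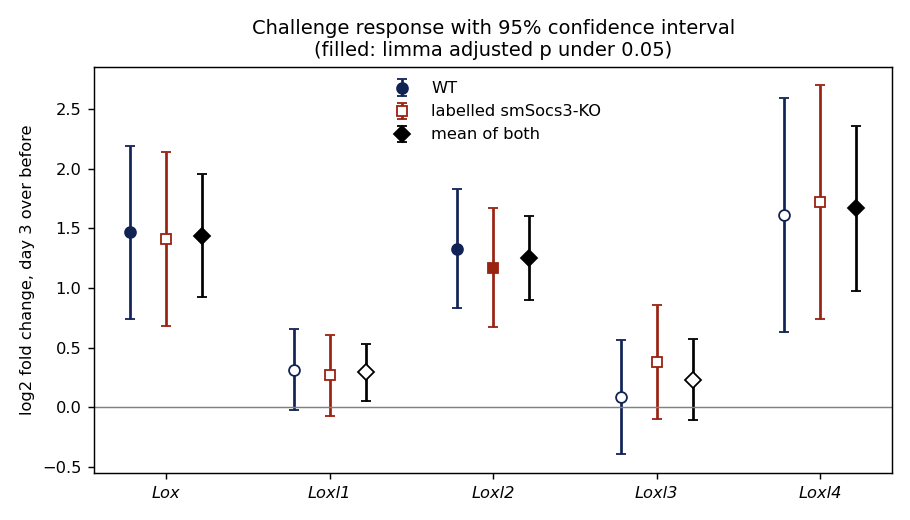
Log2 fold change of each lysyl oxidase at day 3 over before challenge (y axis) in WT, on the arrays labelled smSocs3-KO and in the mean of both, with limma's 95% confidence interval, where filled points have an adjusted p under 0.05. The mean responses of Lox (1.44), Loxl2 (1.25) and Loxl4 (1.67) are filled and those of Loxl1 (0.29) and Loxl3 (0.23) are open.

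Counted over the family, 2 of 5 members (Lox and Loxl2) were called higher in the WT challenge response, compared with 3.48% of all genes tested, and 1 of 5 (Loxl2) on the arrays labelled smSocs3-KO, compared with 1.56%. With arrays scaled to their median, the higher and lower calls over all genes went from 792 and 267 to 894 and 95 in WT and from 356 and 181 to 777 and 92 under the smSocs3-KO label, where Lox and Loxl4 were then called as well (limma adjusted p = 0.0321 and 0.0415). All 3 day 3 arrays lay above all 3 before challenge for 4 members in WT, compared with 19.9% of all genes, and for 3 members under the smSocs3-KO label, compared with 12.8%. For Lox, Loxl2 and Loxl4 this held for all 6 arrays against all 6, as it did for 4.71% of all genes. The median mean response was 1.25 over the 5 members and -0.08 over all genes tested. Only 2.36% of genes had a larger mean log2 fold change than Lox, 3.02% a larger one than Loxl2 and 1.72% a larger one than Loxl4, while 23.0% and 26.8% were above Loxl1 and Loxl3. With all arrays and the probe that stood for each gene, no member reached the study's threshold of an unadjusted p under 0.01 and a fold change over 4, the highest fold change being 3.30, that of Loxl4 under the smSocs3-KO label. Few of all genes tested passed this threshold as higher: 1.06% in WT, 1.35% under the smSocs3-KO label and 1.13% in the mean response. Loxl4 did reach it, at a log2 change over 2, under the smSocs3-KO label without replicate 3 at day 3 (2.22) or with its second probe (2.11), and in WT with the replicate number as a block (2.05).

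In an exact two-sided permutation test of each member on its own, in which the day labels were exchanged within each genotype, Lox, Loxl2 and Loxl4 reached p = 0.005, the smallest p that the 400 arrangements can give. The exact p was 0.01 for Loxl1 and 0.155 for Loxl3. The size of the response was then compared between members in the same way, on the difference of their log2 signals within each array, with adjustment over all 10 pairs. The response of Loxl1 differed from those of Lox, Loxl2 and Loxl4 (Lox minus Loxl1 1.15, Loxl1 minus Loxl2 -0.96 and Loxl1 minus Loxl4 -1.38 on the log2 scale, exact permutation test, adjusted p = 0.01 for each). The response of Loxl3 also differed from these 3 (Lox minus Loxl3 1.21, Loxl2 minus Loxl3 1.02 and Loxl3 minus Loxl4 -1.44, exact permutation test, adjusted p = 0.01, 0.01 and 0.0167). Between Lox and Loxl2 the difference was 0.19, between Lox and Loxl4 -0.23 and between Loxl2 and Loxl4 -0.42, and none of these 3 pairs passed (exact permutation test, adjusted p = 0.4, 0.256 and 0.121). Loxl1 and Loxl3 differed by 0.06 (exact permutation test, adjusted p = 0.735). With smSocs3-KO replicate 3 at day 3 left out, Lox minus Loxl4 was -0.37 and Loxl2 minus Loxl4 -0.57, and both pairs passed (exact permutation test, adjusted p = 0.0313 and 0.0286). With WT replicate 1 or 2 before challenge left out, the 6 pairs that had passed came to an adjusted p of 0.05 by the same exact test and missed the threshold, as did the 3 pairs with Loxl3 without WT replicate 3 before challenge. Without smSocs3-KO replicate 1 or 4 before challenge the pair of Loxl3 and Loxl4 missed it as well (exact permutation test, adjusted p = 0.0667).

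The order of the 4 group means was also compared with the spread of the arrays. For Lox, Loxl2 and Loxl4 the 2 day 3 groups were highest, and the gap to the higher of the groups before challenge (1.25, 1.17 and 1.57 on the log2 scale) exceeded the SD of both neighbours. Neighbours on the same day did not differ by more than both SDs, except Loxl2 before challenge, where the gap between the smSocs3-KO label and WT (0.15) was above both SDs (0.13 and 0.10) and limma's adjusted p was 0.9999. For Loxl1 and Loxl3 no pair of neighbours in the order differed by more than both SDs.

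Between genotypes, no member was called before challenge or at day 3, and none in the difference of the challenge responses. Before challenge the log2 difference from WT lay between -0.17 (Loxl3) and 0.15 (Loxl2), and limma called 6 of all genes, 0.0264%, of which none was a member. At day 3 it lay between -0.21 (Lox) and 0.15 (Loxl4), and 1.07% of all genes were called. The lowest limma adjusted p among the 5 members was 0.702 at day 3 and 0.9999 before challenge. These differences had 95% confidence intervals of -0.94 to 0.51 for Lox and -0.83 to 1.14 for Loxl4 at day 3, and differences within these bounds remain possible. With the slide as a block, the day 3 differences were -0.58 for Lox, -0.28 for Loxl1, -0.13 for Loxl2, -0.24 for Loxl3 and -0.41 for Loxl4. The slide term in these values rests on smSocs3-KO replicate 1 before challenge, the only array of its label on slide 1. The genotype by challenge interaction lay between -0.16 (Loxl2) and 0.29 (Loxl3), and limma called 0% of all genes at the adjusted threshold (1254 at an unadjusted p under 0.05, none of them a member).

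Since the genotype was largely tied to the slide, the challenge responses were also taken within slides. All 6 WT arrays were on slide 1. A fit to the 7 arrays of slide 1 left the WT responses of Lox, Loxl2 and Loxl4 at 1.47, 1.33 and 1.62, and the limma adjusted p was 0.0802 for each, with 0 of all genes called (6541 at an unadjusted p under 0.05). Within the 5 arrays of slide 2, the smSocs3-KO responses were 1.29 for Lox, 1.13 for Loxl2 and 1.53 for Loxl4 (limma adjusted p = 0.164, 0.126 and 0.226). With the slide as a block over all 12 arrays, the mean responses were 1.38, 1.23 and 1.57 and passed (limma adjusted p = 0.0144, 0.0101 and 0.0188). The slide term took up smSocs3-KO replicate 1 before challenge, so these challenge responses were those of the fit without that array. The WT responses within slide 1 were likewise those of the fit to the WT groups only.

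The probes of a member did not give the same size of response throughout. With limma p-values adjusted over all 32280 probes kept, both probes of Lox were called in the mean response, with 1.44 and 0.98. So were all 3 of Loxl2 (1.25, 0.98 and 0.88) and both of Loxl4 (1.67 and 1.91). Over genes, 12.6% were called higher in this response, and the share over all probes is not given here. Neither probe of Loxl1 was called (0.29 and 0.24). The 3 probes of Loxl2 gave values close to each other in WT and less so under the smSocs3-KO label. In WT they gave 1.33 (A_52_P480351), 1.39 (A_51_P275949) and 1.18 (A_55_P2131348), and on the arrays labelled smSocs3-KO 1.17, 0.56 and 0.57, where the probe that stood for the gene was the only one called. The interaction of the printed probe A_51_P275949 was -0.83 (standard error 0.37, unadjusted p in limma 0.0492, adjusted p = 0.950), so that the genotype labels did not differ at the adjusted threshold with any probe. The second Lox probe (chromosome 18 from 52680465 to 52680524) gave 1.17 in WT and 0.78 under the smSocs3-KO label.

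**Figure D3:**
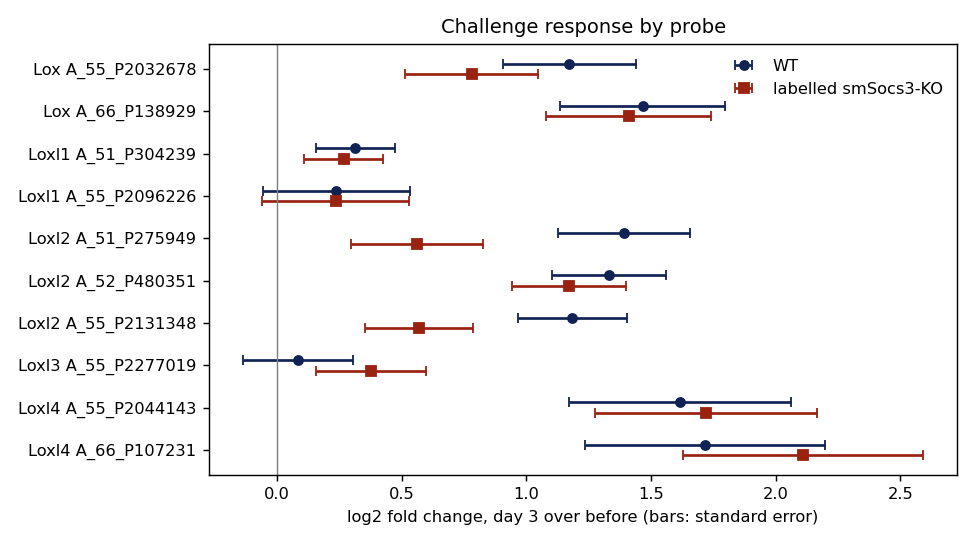
Log2 fold change at day 3 over before challenge (x axis) of each of the 10 lysyl oxidase probes (y axis), in WT and on the arrays labelled smSocs3-KO, with limma's standard error as bars. For Loxl2 the WT values of the 3 probes lie between 1.18 and 1.39, whereas under the smSocs3-KO label 2 of the 3 lie at 0.56 and 0.57 and the other at 1.17.

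Over the 12 arrays, which share the days, slides and the scaling to the 75th percentile, Loxl4 correlated with Lox at a Pearson r of 0.96 (Spearman rho 0.94) and with Loxl2 at 0.95 (0.91), and Lox with Loxl2 at 0.93 (0.84). For Loxl1 and Lox r was 0.80, and for Loxl3 and Lox it was 0.14. After the group means were subtracted, r was 0.90 for Lox and Loxl4, 0.66 for Lox and Loxl2 and 0.83 for Loxl2 and Loxl4, whereas Loxl3 had -0.70 with Lox, -0.54 with Loxl2 and -0.65 with Loxl4. In the day 3 arrays this corresponded to WT replicate 4, with a deviation from its group mean of -0.67 in Lox and 0.39 in Loxl3, and to smSocs3-KO replicate 5, with 0.65 in Lox and -0.34 in Loxl3.

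The 3 tested genes whose signal followed each member most closely by Pearson r over the 12 arrays were named as a description. For Lox they were Gspt1, a translation termination factor (r = 0.99), Vmp1, a membrane protein of autophagy (0.98), and Slc41a2, a magnesium transporter (0.98). For Loxl4 they were Gpn2 (0.98), Vmp1 (0.98) and Eif1ad (0.98), so that Vmp1 was among the closest genes of both. For Loxl2 they were Gm5068, Sh3bgrl3 and Pqlc2, a lysosomal amino acid transporter (0.98 for each). For Loxl1 they were Taf3, a subunit of a general transcription factor (0.95), Atpbd4 (0.94) and Afg3l2, a mitochondrial protease (0.92). Loxl3 was followed less closely, by a probe for an unnamed transcript (0.90), Ndst3, a heparan sulfate sulfotransferase (0.89), and Ranbp9 (0.88).

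The genes around the family were examined in 8 lists, which held the proteins that bind or process the enzymes, their substrates, the supply of copper, and signals known to raise their transcription. Of the 52 genes, 51 were tested, and in the mean response 21 of them were called higher and 0 lower, with a median log2 change of 0.34, compared with 12.6% and 10.3% of all genes and a median of -0.08. In WT alone 10 were called higher, compared with 3.48% of all genes, and under the smSocs3-KO label 0, compared with 1.56% (limma). The WT count was 0 without any of the 3 WT arrays before challenge or WT replicate 1 or 3 at day 3. It was also 0 without smSocs3-KO replicate 4 before challenge. In each of these settings only 0 or 3 of all 22758 genes tested were called. Without WT replicate 4 at day 3 the WT count was 18 higher and 3 lower, where 2173 of all genes were called higher and 1490 lower. Without WT replicate 4 at day 3 the mean response called 23 higher and 3 lower, and with the slide as a block 18 and 0. Without WT replicate 1 before challenge, the lowest count of the single arrays left out, it called 12 and 0. Over all genes tested, these 3 settings called 3355 higher and 3178 lower, 2303 and 1809, and 1545 and 985. The calls of Postn, Fbln2, Col5a2, Vegfa, Smad7 and Ctgf in the mean response, given below with their values, were lost under 11 to 17 of 25 alternatives. Counts over single lists rest on few genes.

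Of the 8 scaffold and binding partners, 4 rose in the mean response and none was called lower. Thbs1, a matricellular protein, rose most, by 3.18 (standard error 0.57, limma adjusted p = 0.00761), from a log2 signal of 0.71 ± 0.42 to 3.89 ± 1.98 in WT and from 0.30 ± 0.79 to 3.48 ± 0.65 under the smSocs3-KO label (SD, n = 3). Its WT signal at day 3 was 5.12, 4.95 and 1.60 in replicates 1, 3 and 4, and without replicate 4 the mean response was 3.75. Fn1, fibronectin, which binds the Lox proenzyme, rose by 0.75 (limma adjusted p = 0.00938). Fbln2 (0.95) and Postn (0.70), which encodes periostin, a scaffold for the cleavage of the Lox proenzyme, passed with limma adjusted p-values of 0.0380 and 0.0450. The response of Postn was 1.28 in WT (limma adjusted p = 0.0471, a call lost under 15 of 27 alternatives, at up to 0.189) and 0.12 under the smSocs3-KO label (0.829), and the difference of these responses did not pass (limma adjusted p = 0.893). The partners of elastic fibre assembly, Efemp2 (fibulin-4, which brings Lox to elastin) and Fbln5 (fibulin-5), had log2 changes of 0.34 and -0.14 and did not pass (limma adjusted p = 0.0781 and 0.621).

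Among the 8 crosslinked substrates, Eln, Col3a1, Col5a1 and Col5a2 rose, the last by 0.55. Eln, which encodes elastin, rose by 1.05 (standard error 0.25, limma adjusted p = 0.0172), from 5.06 ± 0.28 to 6.40 ± 0.31 in WT and from 4.69 ± 0.65 to 5.45 ± 0.55 under the smSocs3-KO label (SD, n = 3). Col3a1 rose by 0.58 and Col5a1 by 0.73 (limma adjusted p = 0.0137 and 0.00795), and Col1a1, a chain of the main fibrillar collagen, had 0.49 (limma adjusted p = 0.0599). Of the genes that process the propeptides of collagen and of the Lox proenzyme, 6 of 7 were tested, and Bmp1 (0.59, limma adjusted p = 0.0234) and Pcolce, which enhances its activity (0.55, limma adjusted p = 0.00927), rose. The median change was 0.52 over the substrates and 0.08 over the processing genes.

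Copper reaches the lysyl oxidases through an importer, a chaperone and a pump of the secretory pathway. Slc31a1, the importer, rose by 0.95 (standard error 0.15, limma adjusted p = 0.00611), and its signal on the 6 day 3 arrays, 1.35 to 2.18, lay above that on the 6 before challenge, 0.74 to 1.01. Atox1, the chaperone, rose by 0.52 (limma adjusted p = 0.0101), whereas Atp7a, the pump, had 0.22 (limma adjusted p = 0.193). Thus 2 of the 5 copper genes were called. The lysyl hydroxylases, which modify collagen lysines ahead of crosslinking, had 3 of 4 genes called: Plod1 (0.66), Plod3 (0.72) and their partner Fkbp10 (0.69) rose with limma adjusted p-values of 0.0110, 0.00764 and 0.0210, and Plod2 had 0.56 (0.106). Other copper amine oxidases, which are outside the family, had none of 3 called in the mean response. Aoc3, an amine oxidase of smooth muscle and endothelium, had -0.75 (limma adjusted p = 0.0630). Abp1 was well above background on 4 of the 12 arrays, and its differences are not given.

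Of 8 genes of TGF-beta ligands and response, 3 rose in the mean response, among them Smad7, an inhibitor of the pathway (0.72, limma adjusted p = 0.0372), and Ctgf, a matricellular protein (0.41, limma adjusted p = 0.0456). Tgfb1 had 0.52 and did not pass (limma adjusted p = 0.0676). Of 9 genes known to respond to hypoxia, Pgk1 (1.13), Ldha (1.02) and Vegfa (0.72) rose, and the other 6 lay between -0.60 and 0.31. Of these, Pgk1 and Ldha encode enzymes of glycolysis. The median change of the hypoxia list was 0.08 and that of the TGF-beta list 0.34.

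**Figure D4:**
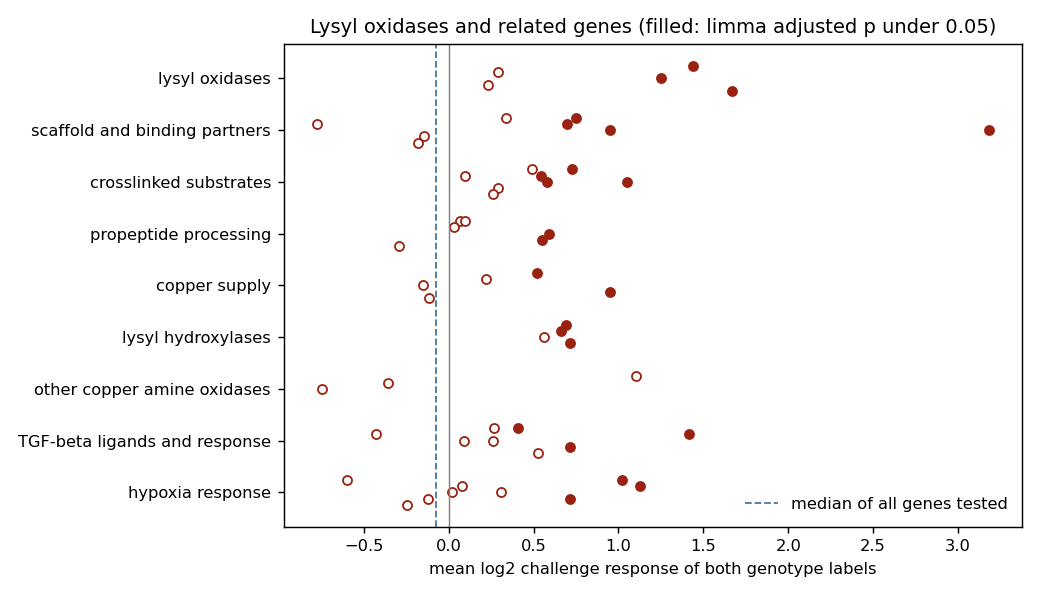
Mean log2 challenge response of both genotype labels (x axis) for each gene of the lysyl oxidases and the 8 related lists (y axis, points are spread vertically for clarity), where filled points have a limma adjusted p under 0.05 and the dashed line is the median of all genes tested (-0.08). Filled points are all above 0, from 0.41 (Ctgf) to 3.18 (Thbs1), with the 3 called lysyl oxidases at 1.25 to 1.67.

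Markers of some cell types changed at day 3, as Lox, Loxl2 and Loxl4 did, and their part in these results was not tested. All 5 tested proliferation markers were called higher in the mean response (limma). Of these, Cdk1 was well above background on 7 of the 12 arrays and Top2a on 11, and both enter the level of the list. The summed linear signal of the list, relative to the 75th percentile, went in WT from a range of 1.40 to 2.08 to one of 6.99 to 52.1 at day 3. Under the smSocs3-KO label it went from between 1.74 and 1.97 to between 5.67 and 19.5. Of 7 macrophage markers, Cd14, Cd68, Csf1r, Emr1 and Mrc1 were called higher, with a mean log2 shift of the list from the 6 arrays before challenge of 1.15 to 1.20 on the day 3 arrays of the smSocs3-KO label. The summed signal of the list overlapped between the groups (173 to 216 and 146 to 250 in WT, 127 to 302 and 154 to 188 under the smSocs3-KO label), and Itgam, a bright member of the list, had a log2 change of -0.35 and was not called. Of 7 smooth muscle markers, Myh11 was called lower (log2 change -1.12), and the summed signal was 2386 to 2658, 1825 to 2345, 2101 to 3203 and 1483 to 1769. Of 7 fibroblast markers only Ly6a was called higher (1.16), with sums of 564 to 675, 480 to 571, 621 to 697 and 688 to 1001. Between genotype labels, Dpt of this list was called higher under the smSocs3-KO label at day 3 (log2 difference 1.97), as were 0.905% of all genes. That call of Dpt was lost under 11 of 26 alternatives. Of 5 tested neutrophil markers 2 were called higher (Ly6g and Mpo, the latter above background on 6 arrays). Of 4 lymphocyte markers 1 was called lower (Cd3d, above background on 10 arrays), and of 6 endothelial markers 1 was called higher (Emcn). Their summed signals in WT went from between 1.93 and 2.16 to between 2.47 and 4.78 (neutrophil), from between 1.46 and 2.05 to between 1.20 and 1.45 (lymphocyte) and from between 45.8 and 48.3 to between 56.2 and 64.1 (endothelial), and under the smSocs3-KO label from between 1.58 and 3.13 to between 4.03 and 43.0, from between 1.60 and 2.002 to between 0.992 and 2.01 and from between 39.5 and 47.7 to between 41.1 and 54.0. The 6 mesothelial markers had a median log2 difference between the smSocs3-KO label and WT of 2.06 before challenge and 2.58 at day 3, with none called. No adipocyte, striated muscle, adrenal or red blood cell marker was called in the mean response. The defining markers Mki67, Cd68, Acta2 and Pdgfra were well above background on all 12 arrays.

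The array with the lowest day 3 signal of Lox and Loxl2 in WT, replicate 4, also differed in these markers. Relative to the mean of the 6 arrays before challenge, its log2 level was 2.16 for the proliferation list, compared with 4.99 and 5.02 on the other 2 WT arrays at day 3. For the macrophage list it was within the range of the arrays before challenge (-0.15 to 0.30), compared with 1.33 and 0.92 on the other 2. The mean of Lox, Loxl2 and Loxl4 stood at 0.85 on this array and at 1.74 and 1.80 on the others. On the arrays labelled smSocs3-KO the order was another one, since replicate 5 had the highest mean of these 3 members (1.92) with the lowest proliferation level (1.79). Without WT replicate 4 at day 3, the mean responses were 1.61 for Lox, 1.36 for Loxl2 and 1.85 for Loxl4.

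**Figure D5:**
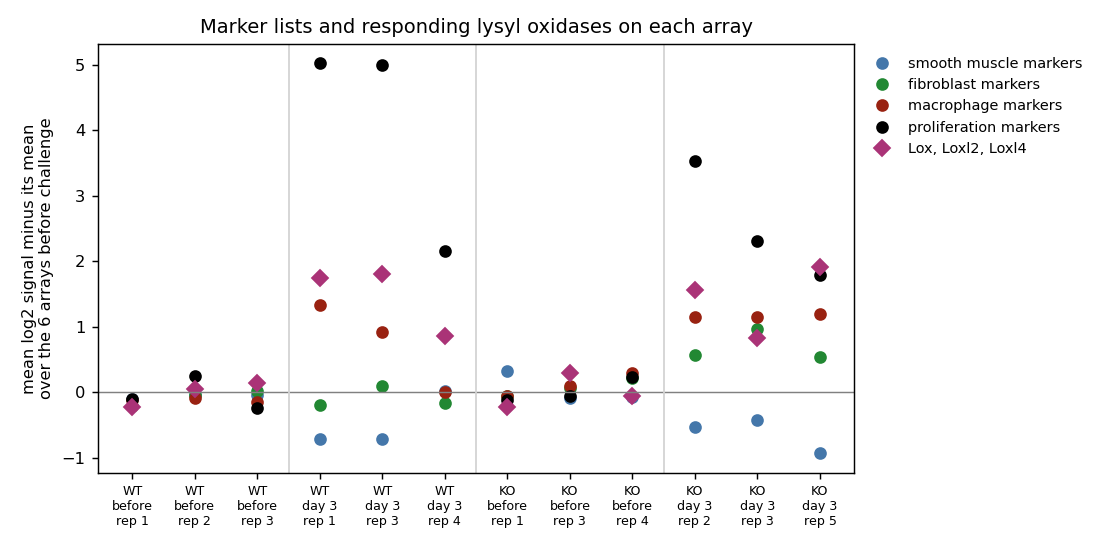
Mean log2 signal of 4 marker lists and of Lox, Loxl2 and Loxl4 together on each array, minus the mean of the 6 arrays before challenge (y axis), with KO for the smSocs3-KO label. WT replicate 4 at day 3 has the lowest proliferation level (2.16) of the WT day 3 arrays and a macrophage level within the range before challenge, and its mean of the 3 lysyl oxidases (0.85) is also the lowest of the 3. Its smooth muscle level (0.02) is the highest of the WT day 3 arrays.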

How the data were processed

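RNA of aortic tissue was hybridised to 12 Agilent one-colour arrays of 62976 spots. Per the file headers the authors extracted signals with Agilent software, and the deposited linear intensity of a spot was background-subtracted and detrended within its array. The submitters' notes name Feature Extraction 9.5.1.1, whereas the headers give another version. The deposited table of the series holds the authors' linear intensities after a normalization between arrays and served as an alternative. Here log2 intensities were centred on each array's 75th percentile over spots other than controls, spots of a probe were averaged, and 32280 of 55681 probes entered the fit, namely those with a signal well above background throughout 1 or more groups. Each gene was represented by its probe with the highest mean. Group means were fitted with limma 3.58.1 in R 4.3.3, moderated with eBayes, and p-values were adjusted over 22758 genes by Benjamini-Hochberg with a threshold of 0.05. The mean challenge response is the average of both genotypes' responses. Exact permutation tests exchanged day labels within genotypes. The limma fit was run on simulated data with independent noise and no slide difference, so that run does not cover slide differences here. The number of arrays limits the precision. Groups were taken from the labels, where WT and smSocs3-KO arrays share some replicate numbers. Same-numbered arrays did not deviate together throughout (r -0.40 to 0.46 over 11 pairs), so no pairing was assumed. The 5 members and all gene lists were chosen with earlier results of these data known. Named were all members, the 3 genes most like each, preset list genes and every list gene with a call. One named list gene is not reported here.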

Additional observations from a re-analysis of the deposited data

How the results depend on the processing

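The mean challenge responses of Lox, Loxl2 and Loxl4 passed the threshold under every alternative and without any single array (leaving out 1 array in turn, Lox 1.28 to 1.61, Loxl2 1.16 to 1.36, Loxl4 1.48 to 1.92). Some of these alternatives were not separate checks. For challenge responses, slide as a block was the same fit as leaving out smSocs3-KO replicate 1 before challenge. For the WT response, the fit within slide 1 was that of only the 2 groups. Responses within 1 genotype depended on the choices. Scaling to the array median moved the median mean response of all genes from -0.08 to 0.14. A percentile over probes in place of spots, and the recounts of the lists, were added after seeing the data. Of the genotype contrasts, no member passed under any alternative. The cause of the changes below was not tested except where fewer arrays or more probes entered by construction. All member probes were well above background on all 12 arrays.

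The WT response of Lox missed the threshold without the filter on dim probes, without moderated variances, with only the 2 groups or within slide 1 (1.47 in each), with quantile normalization (1.34), in the authors' table (1.34) and with the replicate block (1.70). That of Loxl2 missed it without the filter, with the 2 groups only or within slide 1 (1.33) and with the replicate block (1.58). That of Loxl4 passed with a variance trend or with slide as a random block (1.62), and that of Loxl3 turned to -0.0590 with quantile normalization, -0.0591 in the authors' table and -0.0783 with the replicate block.

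Under the smSocs3-KO label Lox passed with array-median scaling (1.65), a variance trend or only probes detected on all 12 arrays (1.41) and normexp (1.43), and Loxl4 with array-median scaling (1.96). Loxl2 missed the threshold without the filter, without moderation or with only the 2 groups (1.17), with the mean of its probes (0.77), with probe A_51_P275949 (0.56) or A_55_P2131348 (0.57), with the replicate block (0.82) and with slide as a block or within slide 2 (1.13). The mean response of Loxl1 passed with a variance trend or without moderation (0.29), and its exact test missed 0.05 with the mean of its probes (0.26), quantile normalization (0.12) and the authors' table (0.12).

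Of the pairs, Lox minus Loxl4 passed with the mean of all probes (-0.58) and turned to 0.21 with normexp, Loxl2 minus Loxl4 passed with the mean of all probes (-0.76), Loxl3 minus Loxl4 missed the threshold with normexp (-0.96), and Loxl1 minus Loxl3 turned to -0.00909 with quantile normalization and -0.00841 in the authors' table.

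Signs of uncalled genotype differences turned as follows. With slide as a fixed block these differences rest on smSocs3-KO replicate 1 before challenge, the only array of its label on slide 1. Before challenge, Lox was 0.0754 with the replicate block, Loxl1 0.0366 with array-median scaling and 0.0105 with probe A_55_P2096226, and Loxl4 -0.0401 with probe A_66_P107231, -0.33 with slide as a block or within slide 1 and -0.12 with slide as a random block. At day 3, Loxl1 was 0.0365 with array-median scaling and 0.00693 with its second probe; Loxl2 was 0.16 with array-median scaling, 0.00749 with normexp, 0.00901 with the percentile over probes, 8.19e-05 with quantile normalization and 8.87e-05 in the authors' table; Loxl3 was -0.24 and -0.0386 with slide as a fixed and a random block; and Loxl4 was -0.41 and -0.10 with these and -0.90 with the replicate block. The interaction turned for Lox with normexp (0.0175), quantile normalization (0.00318) and the authors' table (0.00282), for Loxl1 with the same 3 (0.00821, 0.15 and 0.15), and for Loxl4 with the replicate block (-1.38) and slide as a block (-0.0828).

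Leaving out 1 array in turn gave WT responses of 1.27 to 1.80 (Lox), 1.20 to 1.55 (Loxl2), -0.11 to 0.25 (Loxl3) and 1.38 to 1.98 (Loxl4), and smSocs3-KO responses of 1.09 to 1.63 (Lox), 0.996 to 1.36 (Loxl2) and 1.34 to 2.22 (Loxl4). Pairs ranged from 1.02 to 1.34 (Lox minus Loxl1), 0.96 to 1.47 (Lox minus Loxl3), -0.37 to -0.12 (Lox minus Loxl4), -1.09 to -0.87 (Loxl1 minus Loxl2), -0.0609 to 0.17 (Loxl1 minus Loxl3), -1.58 to -1.22 (Loxl1 minus Loxl4), 0.87 to 1.23 (Loxl2 minus Loxl3), -0.57 to -0.23 (Loxl2 minus Loxl4) and -1.75 to -1.16 (Loxl3 minus Loxl4). Genotype differences ranged from -0.55 to 0.00577 (Lox), -0.23 to 0.18 (Loxl2), -0.0432 to 0.32 (Loxl3) and -0.23 to 0.65 (Loxl4) at day 3 and from -0.15 to 0.23 (Loxl4) before challenge. The interaction ranged from -0.39 to 0.16 (Lox), -0.12 to 0.0581 (Loxl1), -0.38 to 0.0279 (Loxl2) and -0.28 to 0.61 (Loxl4).

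With the replicate block, mean responses were 1.24 (Lox), 0.22 (Loxl1), 1.20 (Loxl2), 0.32 (Loxl3) and 1.36 (Loxl4), those of Lox, Loxl2 and Loxl4 passing (limma), and the genes called fell to 861 in the mean response, 0 in WT (limma), 1 under the smSocs3-KO label, 2 at day 3 and 1 before challenge. Same-numbered arrays had a median r of 0.0727 over 11 pairs (-0.40 to 0.46), and 43 other pairs -0.00565, which cannot exclude a pairing. Before challenge, r between WT and smSocs3-KO arrays was 0.46 for replicate 1 and 0.33 for replicate 3.

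Counts of all genes called by limma moved by over 1.5 times. In WT, 1059 became 0 with only the 2 groups or within slide 1, 10 without the filter, 667 without moderation, 605 with normexp, 615 with quantile normalization, 614 in the authors' table, 1774 with a variance trend, and 2290 and 2038 with slide as a fixed and a random block. Under the smSocs3-KO label, 537 became 869 with array-median scaling, 176 without the filter, 26 without moderation, 343 with the 2 groups, 50 and 278 with the slide blocks and 47 within slide 2. The 244 at day 3 became 70, 43, 57, 0 and 1 without the filter, without moderation, with the 2 groups and with the slide blocks, the 6 before challenge became 0 to 3, and the 5220 of the mean response became 3373 without the filter. Without 1 array, the counts ranged from 0 to 3663 in WT and 38 to 1952 under the smSocs3-KO label, both highest without WT replicate 4 at day 3, from 2530 to 6533 in the mean response, 47 to 602 at day 3, 1 to 14 before challenge and 0 to 10 for the interaction.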
